A study of Mus musculus with 7 samples.

Results

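DNaseI accessibility in podocytes kept in high glucose with a miR-93 mimic (HG+miR-93) was compared with that in podocytes kept in high glucose with a non-targeting mimic (HG+NT). These 4 samples, 2 per condition, of the 7 in the series were chosen by their labels. Each condition is represented by 1 list of peaks over its replicates together, and the HG+NT list holds 846027 and the HG+miR-93 list 900109 of the 2782440 peaks in the 3 lists of the study. The comparison was made at promoters, taken as 500 nt on either side of the TSS of protein-coding genes, and 21835 of 21853 genes had a peak there in every list. The cells were differentiated, conditionally immortalised mouse podocytes, a line of the epithelial cells that wrap the glomerular capillaries. HG+NT cells received 25 mM glucose for 36 h and 50 nM of the non-targeting mimic, and HG+miR-93 cells the same glucose and time with 50 nM of the miR-93 mimic. Untransfected cells in 5 mM glucose for 36 h (NG, 2 samples) served here only to order promoters by strength in a list outside the comparison, and genomic DNA digested by a lower dose of the enzyme (1 sample) was the background for calling peaks. A single cell line in culture was used throughout, so neither other podocyte lines nor the tissue are represented. Because the replicates are combined in the lists, no difference between HG+NT and HG+miR-93 can be set against the spread between replicates, no test between them was possible, and every comparison is a description of 1 list beside another.

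DNaseI cuts DNA where no nucleosome covers it, and the ends of the released fragments gather at promoters and enhancers that are open. MicroRNAs act mainly on mRNAs in the cytoplasm: bases 2 to 8 of the miRNA, the seed, pair with a site in the 3′ UTR of a target, and the target's translation and stability fall. The question put to these samples is how a miRNA added to cells in high glucose bears on chromatin. The link proposed by the study is the mRNA of Msk2 (Rps6ka4), a kinase of the nucleus that is switched on by ERK and p38 and phosphorylates histone H3 at the promoters of immediate early genes such as Fos and Jun. Diabetic nephropathy, the disease for which the cells are a model, injures podocytes and thickens the glomerular matrix.

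The mature sequences of miR-93 and of its relatives with the same seed are shown so that the agent under study can be seen. They are those of RefSeq (GRCm38.p6), 5′ to 3′, with the seed in capitals.
miR-93-5p, chr5:138165574-138165596, minus strand: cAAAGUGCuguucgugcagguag
miR-106b-5p, chr5:138165787-138165807, minus strand: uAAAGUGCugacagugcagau
miR-17-5p, chr14:115043684-115043706, plus strand: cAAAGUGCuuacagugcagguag
miR-20a-5p, chr14:115044183-115044205, plus strand: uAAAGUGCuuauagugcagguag
miR-106a-5p, chrX:52742541-52742563, minus strand: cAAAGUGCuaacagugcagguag
miR-20b-5p, chrX:52742159-52742181, minus strand: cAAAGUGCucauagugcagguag
Of 1738 mature miRNAs in the table, 7 had this seed, the 6 shown and miR-6383 of the X chromosome. The position-by-position identity to the 23 bases of miR-93 was 16 for miR-106b, 19 for miR-17, miR-20a and miR-106a, and 20 for miR-20b. The genes of miR-93 and miR-106b lie next to each other on chromosome 5 within Mcm7, which encodes a subunit of the replicative helicase.

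The 3′ UTR of Rps6ka4 (chr19:6829085-6840636, minus strand, GRCm38) is shown at the matches to the seed that it holds, with the matched bases in capitals.
Rps6ka4, chr19:6829378-6829407, minus strand: acccatcaatgtCACTTTatggaccgtgtg
Rps6ka4, chr19:6829278-6829307, minus strand: tctgagatacatCACTTTtgtcaacggctc
At the first, 422 bases into the 732 bases of the UTR, CACTTT pairs with bases 2 to 7 of miR-93 and is followed by an A, and at the second, CACTTT is followed by a T. The full 8-base site, in which base 8 of the miRNA is paired too, was not in this UTR. It was found in the 3′ UTR of 773 of 21671 genes (3.57%), and the promoters of these genes are described at the end.

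Values are given on these scales. The fold is that deposited for each peak, the fragments at its summit over the local mean of the input, after 1 was added to each. The highest fold at a promoter was turned into a percentile among the 21835 genes of its own list, so that lists of different depth can be set side by side, and a change is the percentile in HG+miR-93 minus that in HG+NT, in points. How many fragments lay at a summit, and the local mean of the input there, was recovered from the deposited fold and p. Fragments multiplied by the scaling factor of their list are called the pileup, whose unit is a fragment at the input's depth. The pileup of a promoter is that of its peak with the highest pileup, with its 95% exact Poisson interval, which holds the counting error alone and no replicate error. A pileup is relative to all fragments of its list, so a lower pileup is a smaller share and not an absolute loss. Paired values stand in the order HG+NT, HG+miR-93. Summits are placed relative to the nearest TSS of the gene, with negative values upstream.

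The lists were made from 3.85 times (HG+NT) and 5.15 times (HG+miR-93) the fragments of the input. The deeper HG+miR-93 list had a median of 12 fragments at a summit and the HG+NT list 10, and at promoters the medians were 25 and 19. The median peak was 1664 bp wide in HG+miR-93 and 1790 bp in HG+NT. The mimic and the difference in depth cannot be told apart. All peaks had a solution for their fragments, and more than 1 solution fitted 3 HG+NT peaks and 1 HG+miR-93 peak. Of the podocyte markers, Vim (vimentin) ranked at percentiles 98.7 and 99.9 in HG+NT and HG+miR-93, and Actn4 (alpha-actinin 4) at 93.3 and 90.8, whereas Nphs1 (nephrin) ranked at 55.0 and 64.1. The median of the 12 podocyte markers was 79.6 and 66.7. It was 58.4 and 46.8 for 8 endothelial markers, 75.3 and 75.7 for 6 mesangial, 60.2 and 61.1 for 8 tubule and 40 and 51.9 for 6 leukocyte markers. The promoter of Ptprc (CD45), which defines leukocytes, ranked at 2.26 and 5.65. Accessibility is not expression, and with a peak at nearly every promoter no marker can be called absent from these lists.

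Promoters kept their order between the lists when the fragments themselves were ranked and less so when the folds were. Spearman's rho across the 21835 genes was 0.904 by pileup and 0.566 by fold, where genes are not replicates and share the 1 input library. The median absolute change was 6.66 points by pileup and 15.2 points by fold. By fold, 4377 genes (20% of those ranked) were at least 20 points higher in HG+miR-93 and 4397 (20.1%) at least 20 points lower. By pileup, 1152 (5.28%) were at least 20 points higher and 1200 (5.5%) at least 20 points lower. Counts of list members past 20 points, given below, are to be read against these shares. Of the 4377 genes higher by fold 3250 had the same sign by pileup, and of the 4397 lower 3242 did. The highest peaks were often not at the same place. A peak was counted where it overlapped the promoter, so its summit can lie far outside it. The summits of a gene lay a median of 456 bp apart, and for 5365 genes (24.6%) they were matched, within 150 bp of each other and both within 500 nt of a TSS. Where summits differ, a change of fold compares 2 positions with 2 local means of the input, so the pileups or the change by pileup are given beside the members of the kinase, immediate early and nephropathy lists where the signs differ. Of these genes with a change by fold of under 20 points, the sign turned by pileup at 12 of 28. The members of other lists were named only if they had the same sign by pileup, except those named for intervals that were apart and the markers of cell types.

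**Figure D1:**
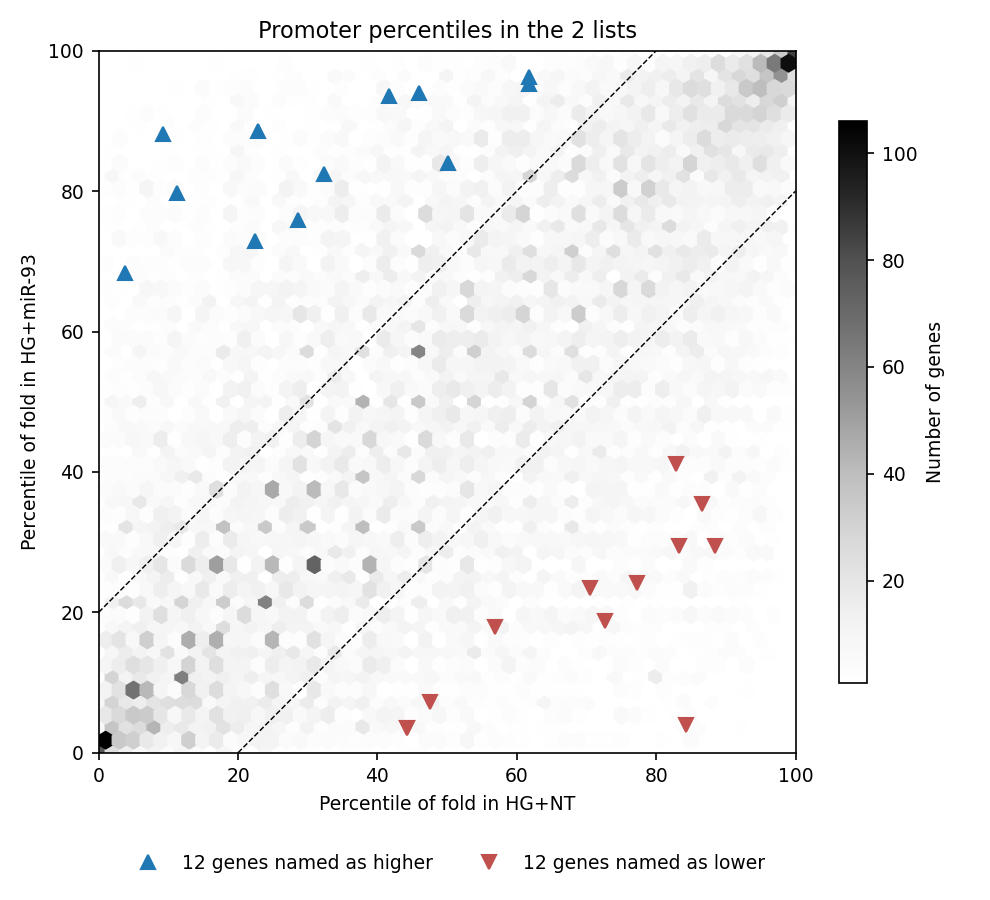
Percentile of the highest promoter fold of each gene, HG+NT on the horizontal and HG+miR-93 on the vertical axis, with the number of genes as grey level, dashed lines 20 points from equality, and the 12 genes named as higher (triangles) and 12 as lower (inverted triangles). Most genes lie between the dashed lines, and 4377 and 4397 genes lie on or beyond them.

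The promoters that were most open had a smaller share of the fragments after the miR-93 mimic than after the control mimic. Promoters were divided into deciles of strength by their pileup in the NG list, which neither side of the comparison uses. The median ratio of the HG+miR-93 pileup to that in HG+NT was 0.973 to 1.01 in the 5 weakest deciles. It was 0.986 in the sixth, 0.944 in the seventh, 0.927 in the eighth, 0.884 in the ninth and 0.823 in the strongest. In the strongest decile, of 2345 promoters, the median pileup was 13 for NG, then 10.9 and 9.13 for HG+NT and HG+miR-93, at medians of 42 and 47 fragments in the last 2 lists. The ratio was below 1 at 86.6% of these promoters (95% Wilson interval 85.2% to 87.9%), against 60.3% of all genes, and its quartiles were 0.732 and 0.928. The input's local mean had the same median, 5.0, in both lists. With matched summits alone, the ratio of the strongest decile was 0.813 and that of the weakest 0.998. By percentile of fold, the strongest decile had a median change of -6.13 points, with 29.6% of its genes at least 20 points lower and 11.5% at least 20 points higher.

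**Figure D2:**
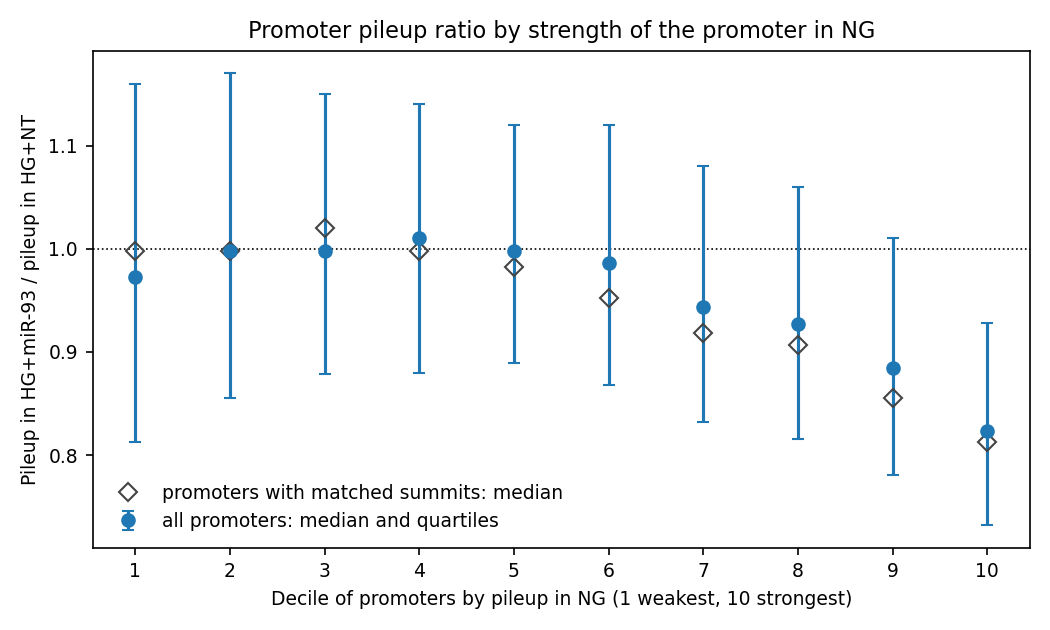
Ratio of the promoter pileup in HG+miR-93 to that in HG+NT (vertical axis) in deciles of promoters ordered by their pileup in NG (horizontal axis), as median and quartiles over all promoters (points and bars) and as median over promoters with matched summits (diamonds). The medians stay near 1 up to the sixth decile and are 0.823 (all) and 0.813 (matched) in the strongest.

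The same order was seen away from promoters, with a smaller departure from 1. NG peaks were grouped by their fragments, and the pileups of the overlapping HG+NT and HG+miR-93 peaks were compared. At 8 to 10 fragments the median ratio was 1.01 for 4214 peaks with a summit within 500 nt of a TSS and 0.998 for 202606 peaks more than 2500 nt away. At 20 to 24 fragments it was 0.898 for 2389 promoter peaks and 0.945 for 413 distal peaks. At 30 to 39 fragments it was 0.805 for 715 promoter peaks and 0.847 for 81 distal peaks. The strongest group, 40 to 59 fragments, held only 63 promoter and 28 distal peaks, with ratios of 0.762 and 0.967. The lower share in HG+miR-93 followed the strength of a site at promoters and distal sites alike up to 39 fragments. As above, depth and mimic cannot be told apart here.

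Base composition and short motifs were read from the 250 bases before and 50 after the start of 21832 genes in the GRCm38 genome, on both strands. Promoters rich in CpG had lower ratios, with a median of 0.985 in the quintile with the fewest CpG and 0.898 in that with the most, and by GC content the quintiles went from 0.973 to 0.924. Within the strongest NG decile alone, the quintiles by CpG went from 0.896 to 0.818 and those by GC from 0.863 to 0.826. Over all promoters, the ratio was 0.891 with and 0.956 without GCGCNTGCG, the motif of NRF-1, which was in 8.34% of promoters. It was 0.903 and 0.956 with and without the ETS motif CCGGAAG (10.7% of promoters), and 0.907 and 0.952 with and without the YY1 motif AAGATGGCG (1.82%). TGACGTCA, the cAMP response element bound by the MSK substrates CREB and ATF1, was in 2.38% of promoters, with ratios of 0.898 and 0.952. TGANTCA, the AP-1 element bound by Fos and Jun, was in 6.91%, with ratios of 0.973 and 0.95. These motifs are not spread evenly over strengths: promoters with the NRF-1 motif had a median NG pileup of 9.38 and those with AP-1 one of 4.02, against 5.36 and 5.81 without them. Within the strongest NG decile the ratios with and without a motif were close, 0.808 and 0.823 for the cAMP response element and 0.817 and 0.823 for AP-1. In that decile the median change by fold was -11.88 points for 104 genes with the cAMP response element and -5.71 for 2240 without, and -13.68 for 90 genes with AP-1 and -6.0 for 2254 without. It was also lower with than without each other motif counted, except TATAAA, the TATA box (-4.8 and -6.18). For NRF-1 it was -9.32 and -5.34, for ETS -7.94 and -5.4 and for YY1 -7.63 and -6.01. TGACGTCA contains TGACG, which was counted by itself as well (23.3% of promoters, ratio 0.918 with and 0.962 without it).

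The 12 genes named as higher in HG+miR-93 are those with matched summits for which the smaller of the changes by fold and by pileup was the largest. They do not belong to 1 pathway. Coil encodes coilin of the Cajal bodies, in which small nuclear RNPs mature, and Sf3a3 a subunit of the U2 snRNP. At Coil (chr11:88970252-88991613) the percentile was 22.9 and 88.6, with pileups of 3.12 (1.61 to 5.44) and 6.02 (4.09 to 8.55) from 12 and 31 fragments, at summits around a start inside the annotated gene. At Sf3a3 it was 32.4 and 82.5, with pileups of 4.93 (2.97 to 7.71) and 7.77 (5.55 to 10.6), both at the summit 12 nt upstream of the TSS. Their NG pileups, 6.25 and 9.38, were close to or above those in HG+miR-93.
Slc35e3, of a family of nucleotide sugar transporters, had percentiles of 3.75 and 68.4 and the highest change by pileup of the 12, 51.4 points, with pileups of 3.64 (1.99 to 6.1) and 6.8 (4.74 to 9.46). Cd9, a tetraspanin of the cell surface, had percentiles of 41.7 and 93.6 and summits in an intron 417 and 355 nt downstream of the TSS, with pileups of 3.9 (2.18 to 6.42) and 6.41 (4.41 to 9.01). Ssr1, a subunit of the translocon-associated complex of the endoplasmic reticulum, had percentiles of 50.2 and 84.0, and its pileups of 4.93 and 7.97 both lay under the 11.2 of NG.
Gpn2, a GTPase that takes part in the assembly of RNA polymerase, had percentiles of 9.21 and 88.2, but its highest pileups lay 334 nt upstream of the TSS in HG+NT and 276 nt downstream in HG+miR-93, with local means of the input of 5.0 and 1.84. The others were Deup1, which builds centrioles in multiciliated cells, Ccdc57, Rnf148, Btbd18, Zfp994 and Folh1 (glutamate carboxypeptidase II), with changes of 33.52 to 68.46 points by fold and of 33.59 to 38.2 by pileup. The HG+NT and HG+miR-93 intervals overlapped at all 12 genes, whose ratios were 1.5 to 1.93. None of the 12 lies in the strongest NG decile.

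The 12 genes named as lower by the same rule are varied in function. Gemin2, of the SMN complex that assembles snRNPs, had percentiles of 86.6 and 35.5 and pileups of 6.23 (3.99 to 9.27) and 3.5 (2.07 to 5.53). Lsm5, of the ring that binds U6 snRNA, had percentiles of 70.5 and 23.5 and pileups of 5.97 and 3.5. Snrpc, the C protein of the U1 snRNP, had percentiles of 82.9 and 41.2 and pileups of 5.97 and 3.69. Rpl17, a protein of the large ribosomal subunit, had percentiles of 77.3 and 24.2 and pileups of 7.27 (4.83 to 10.5) and 4.08 (2.53 to 6.24), with both summits in an intron about 100 nt downstream of the TSS (101 and 106 nt).
Mmp10 (chr9:7502352-7510240, plus strand), which encodes the secreted protease stromelysin 2, differed most. Its percentile was 84.3 and 3.96. The fragments at its summits were 18 and 6 and the pileups 4.67 (2.77 to 7.39) and 1.17 (0.428 to 2.54), a ratio of 0.249, with intervals that did not overlap. The NG pileup was 3.57, and the input's local mean was at its floor of 1.43 in both lists. The summits lay 99 nt (coding exon) and 197 nt (intron) downstream of the TSS.
Hist1h2ac and Hist1h2bc, which encode replication-dependent histones H2A and H2B, are divergent genes that share 1 peak on chromosome 13. Its pileup was 9.09 (6.33 to 12.6) and 4.28 (2.68 to 6.47), from 35 and 22 fragments, at percentiles of 44.2 and 3.59, and was 9.83 in NG. Helb, a DNA helicase of replication, had pileups of 8.31 and 4.66 beside an NG pileup of 13.4, the highest of the 12. Mrpl44, of the large mitochondrial ribosomal subunit, had percentiles of 47.5 and 7.26, Zpbp2, a protein of the sperm acrosome, 88.4 and 29.4, and Clint1, a clathrin adaptor of the Golgi, 56.9 and 17.9. Churc1, a zinc finger protein, had percentiles of 72.6 and 18.7. Of the 12 genes Mmp10 alone had intervals that did not overlap, and the ratios of the other 11 were 0.47 to 0.618.

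**Figure D3:**
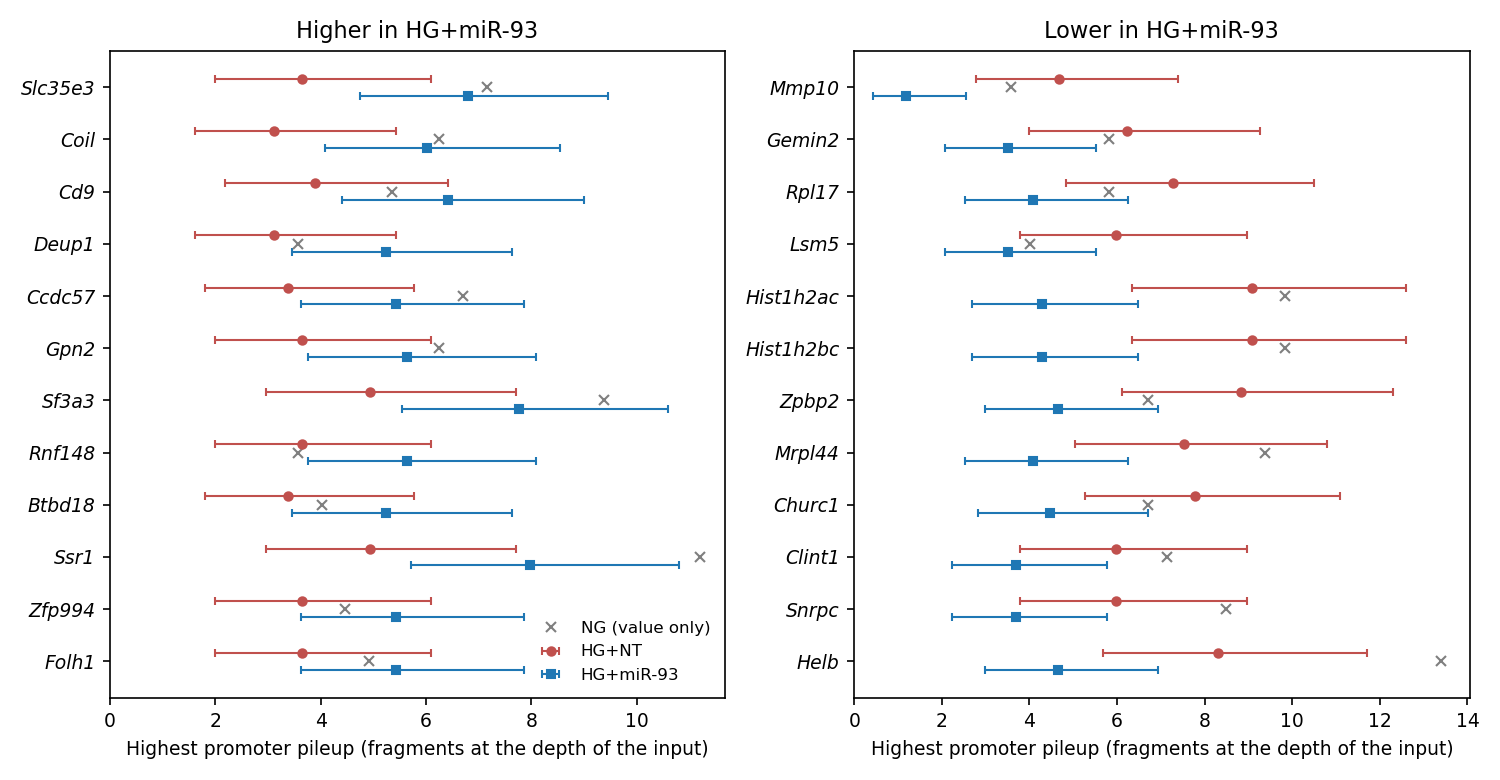
Highest promoter pileup, in fragments scaled to the input (horizontal axis), of the 12 genes named as higher (left) and the 12 as lower (right), in HG+NT (circles) and HG+miR-93 (squares) with 95% exact Poisson intervals and in NG (crosses, value only). The intervals overlap at every gene except Mmp10, with 4.67 and 1.17.

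The 250 bases before the start nearest to the HG+NT summit are shown for Mmp10, Hist1h2bc and Coil, which of these 24 genes had the lowest ratio, the largest negative change by pileup and the highest ratio, read from the GRCm38 genome. Motifs are in capitals.
Mmp10, chr9:7502102-7502351, plus strand: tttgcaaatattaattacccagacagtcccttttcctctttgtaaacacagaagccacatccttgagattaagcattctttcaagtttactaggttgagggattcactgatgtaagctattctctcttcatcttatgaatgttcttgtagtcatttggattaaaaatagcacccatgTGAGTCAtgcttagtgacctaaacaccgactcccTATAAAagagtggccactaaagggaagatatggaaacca
Hist1h2bc, chr13:23683949-23684198, plus strand: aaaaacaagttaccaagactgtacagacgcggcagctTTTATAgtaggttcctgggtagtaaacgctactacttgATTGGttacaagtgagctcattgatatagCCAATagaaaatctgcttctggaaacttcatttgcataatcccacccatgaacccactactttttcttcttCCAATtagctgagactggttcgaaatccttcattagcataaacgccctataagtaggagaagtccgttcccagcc
Coil, chr11:88973685-88973934, plus strand: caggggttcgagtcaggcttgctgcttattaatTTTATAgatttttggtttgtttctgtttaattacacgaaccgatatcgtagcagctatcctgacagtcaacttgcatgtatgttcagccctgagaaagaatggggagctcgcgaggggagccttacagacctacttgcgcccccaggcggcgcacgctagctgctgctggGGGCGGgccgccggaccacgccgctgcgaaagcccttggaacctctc
In the Mmp10 promoter the AP-1 element TGAGTCA starts 73 bases and a TATA box, TATAAA, 39 bases before the start, and the GC content is 38.0%. The Hist1h2bc stretch is the whole interval between the divergent histone genes, with CCAAT boxes at -175 (minus strand), -146 and -75 and a TATA box at -213 on the minus strand, the side of Hist1h2ac. The Coil stretch is richer in GC, 54.8%, and has a GC box, GGGCGG, at -47 and a TATAAA on the minus strand at -217. Over all promoters, TATAAA was found in 12.4%, CCAAT in 37.4% and GGGCGG in 43.2%, with ratios of 0.968, 0.935 and 0.926 with and of 0.948, 0.962 and 0.973 without the motif. A match of letters is not a site in use.

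Over all genes, the intervals of HG+NT and HG+miR-93 were apart at 18 (0.0824%) with the higher pileup in HG+miR-93 and at 75 (0.343%) with the lower. Of the 5365 genes with matched summits they were apart at 33, all lower in HG+miR-93, and 30 of the 33 were in the strongest NG decile. In that decile as a whole, 2.13% of genes were apart and lower. The 33 genes lie at 29 distinct peaks, with ratios of 0.249 to 0.667 and, apart from Mmp10, HG+NT pileups of 11.9 to 31.2. No theme was tested among them. Members include Hnrnpc and Khsrp, RNA-binding proteins, Gatad2a of the NuRD complex, Ripk2, a kinase of innate immunity, and Sptan1, a spectrin. These, and the genes with intervals apart that are given in the lists below, were named after their values had been seen. At Hnrnpc the pileup was 15.1 (11.4 to 19.5) and 7.97 (5.72 to 10.8), at percentiles of 89.6 and 20.1. Gorab, a Golgi protein, had 11.9 (8.75 to 15.9) and 5.83 (3.93 to 8.32), and Sptan1 13.5 (10.1 to 17.7) and 6.8 (4.74 to 9.46). At Khsrp the pileups were 27.5 (22.5 to 33.3) and 17.7 (14.2 to 21.7), although its percentile was 100 and still 99.7. At Parp3 and Rrp9, which share a divergent promoter, the percentile of that peak was 95.3 and 15.2, with pileups of 16.1 (12.3 to 20.6) and 8.55 (6.21 to 11.5). Of the 33, 18 were also at least 20 points lower by fold.

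The kinases upstream of the proposed target, and Msk2 itself, were read from a list of 24 genes of the MSK, RSK and MAP kinase pathway and of the substrates and readers of H3 phosphorylation. Of the 24, 3 were at least 20 points higher by fold and 8 lower (12.5% and 33.3%, against 20% and 20.1% of all genes). None passed 20 points by pileup, where 5.28% of all genes were higher and 5.5% lower. The median change of the list by pileup was 0.51 points. The median ratio of the list was 0.871 and that of the NG deciles its members belong to was 0.884, close to each other. Rps6ka4 (Msk2) ranked at percentile 82.3 and 82.5, with pileups of 7.27 (4.83 to 10.5) and 7.77 (5.55 to 10.6) at summits 90 nt downstream, in a coding exon, and 85 nt upstream of a TSS. Its paralog Rps6ka5 (Msk1), also an H3 kinase, ranked at 99.9 in both lists with pileups of 18.4 (14.4 to 23.3) and 14.6 (11.5 to 18.3). A promoter says nothing of the mRNA on which the miRNA acts, and RNA was not analysed here.
Among the kinases that activate MSKs, Map2k1, which phosphorylates ERK, had percentiles of 51.5 and 13.4 and pileups of 11.4 (8.3 to 15.3) and 7.0 (4.9 to 9.69) at matched summits 21 and 35 nt upstream of the TSS. Map2k6, which phosphorylates p38, had percentiles of 61.8 and 6.47 and pileups of 3.9 and 2.53 at 15 and 13 fragments. Map2k2 and Map2k3 had changes of 9.83 and 1.75 points. Of the MAP kinases themselves, Mapk14 (p38 alpha) ranked at 52.0 and 46.8 by fold, with a change of 2.72 points by pileup, and Mapk11 (p38 beta) had changes of -15.53 by fold and 7.06 by pileup. Mapk3 (ERK1) was 26.64 points higher by fold but had a change of -11.94 by pileup.
The RSKs Rps6ka1, Rps6ka2 and Rps6ka3 had changes of 15.4, -10.35 and -28.72 points by fold and of -10.58, -5.31 and 4.9 by pileup, so 2 of these 3 differed in sign between the measures. Of the substrates, Creb1 ranked at 83.6 and 75.5, with a change of 1.33 by pileup, Atf1 at 51.5 and 75.9, with a change of -11.55 by pileup, and Hmgn1, a nucleosome-binding protein phosphorylated by MSKs, at 64.3 and 29.1, with 3.5 by pileup. The other H3 serine 10 kinases, Aurka, Aurkb, Chuk and Pim1, had changes of -22.35, 20.52, 17.65 and -36.52 points by fold and of -10.55, -1.61, 10.76 and -4.19 by pileup. Of the 14-3-3 proteins that bind phosphorylated H3, Ywhae ranked at 86.0 and 58.4, Ywhag at 93.3 and 89.1 and Ywhaz at 76.0 and 80.1. Mcm7, the host of the miR-93 gene, ranked at 70.2 and 39.7 by fold, with pileups of 10.4 (7.42 to 14.1) and 9.91 (7.38 to 13.0) and a change of 3.35 by pileup, where the input's local mean was 4.6 and 6.0.

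Immediate early genes, induced within minutes of a stimulus and the classical targets of MSK, had the lowest median of all lists by fold and by pileup ratio. Of 25 genes, 12 were at least 20 points lower by fold and 4 higher, and the median change was -16.56 points against 0.03 for all genes. The pileup was lower in HG+miR-93 at 22 of 25 (88.0%), against 60.3% of all genes and 86.6% of the strongest NG decile. The median ratio was 0.798. The NG deciles of the members had 0.884, and 16 of the 25 lay below the median of their own decile, where 49.6% of all genes did. By rank of the pileup the median change was -1.43 points, and no member passed 20, where 5.28% of all genes were higher and 5.5% lower. These genes are strongly open, 12 of them in the strongest NG decile, and the ratio is lower at strong promoters in general. The part of strength in the fold ranks was not tested.
The stress-induced factor Atf3 (chromosome 1) had the only intervals that were apart, with pileups of 19.2 (15.1 to 24.1) and 11.7 (8.9 to 15). They came from 74 and 60 fragments at summits 66 and 57 nt upstream of a TSS. Its percentiles by fold, 95.6 and 59.7, compare 2 sites, with summits at chr1:191183405 and chr1:191218135. Jun had pileups of 14.8 (11.2 to 19.2) and 10.5 (7.88 to 13.7) at matched summits 95 and 76 nt upstream, and percentiles of 92.1 and 65.9. The other AP-1 subunits were unlike each other. Fosl1 and Fosl2 ranked higher in HG+miR-93, at 95.9 and 98.8 and at 88.5 and 99.2, and Junb and Jund had changes of 20.62 and 2.88 points, while Fosb had one of -27.28. At Junb the peaks reached the promoter from summits more than 1000 nt upstream (1284 and 1520 nt). By pileup, Fosl1 was 17.26 points higher, with 6.75 (4.41 to 9.89) and 8.36 (6.05 to 11.3), and the changes of the other subunits were under 3 points in size.
At Fos (chr12:85473890-85477273, plus strand) the percentile was 72.5 and 19.4. Its pileups, 9.87 (6.98 to 13.5) and 9.13 (6.71 to 12.1), were much closer than its folds of 2.09 and 1.27. The summits lay 296 and 10 nt upstream of the TSS, with local means of the input of 4.2 and 7.0, and by pileup the rank was 2.67 points higher in HG+miR-93. Egr1 ranked at 92.1 and 12.1 by fold, with local means of 5.4 and 9.0. Its pileups of 15.8 (12.1 to 20.3) and 10.3 (7.72 to 13.5) gave a change of only -3.14 points in rank. Klf6, a zinc finger factor, had pileups of 15.8 (12.1 to 20.3) and 11.3 (8.56 to 14.6) and percentiles of 94.7 and 39.1.
Lower by both measures were also Srf, the factor that binds the serum response element, with percentiles of 72.7 and 29.9 and pileups of 11.2 (8.08 to 15) and 7.19 (5.06 to 9.91), and Klf4, Ier3 and Ier5. The percentiles of Srf by fold compare 2 sites, with summits at chr17:46556354 and chr17:46551725. Its highest pileups lay 180 and 174 nt upstream of a TSS. Dusp1, a phosphatase that shuts off MAP kinases, and Zfp36, which degrades AU-rich mRNAs, had changes of -26.3 and -25.84 points by fold and of 2.92 and 1.2 by pileup. The pileup was higher in HG+miR-93 at 3 genes alone, Myc, Egr2 and Fosl1. Myc ranked at 15.6 and 96.0 by fold. Its highest pileups were 8.83 (6.11 to 12.3) and 9.72 (7.21 to 12.8). They lay 373 and 368 nt upstream of different TSSs of the gene, in an intron (chr15:61986660) and outside the gene (chr15:61985022). The high fold in HG+miR-93 came from another peak, 412 nt downstream of a TSS. Egr2 ranked at 49.3 and 99.9, with pileups of 9.35 (6.55 to 12.9) and 10.9 (8.22 to 14.1) and local means of 5.0 and 2.0.

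**Figure D4:**
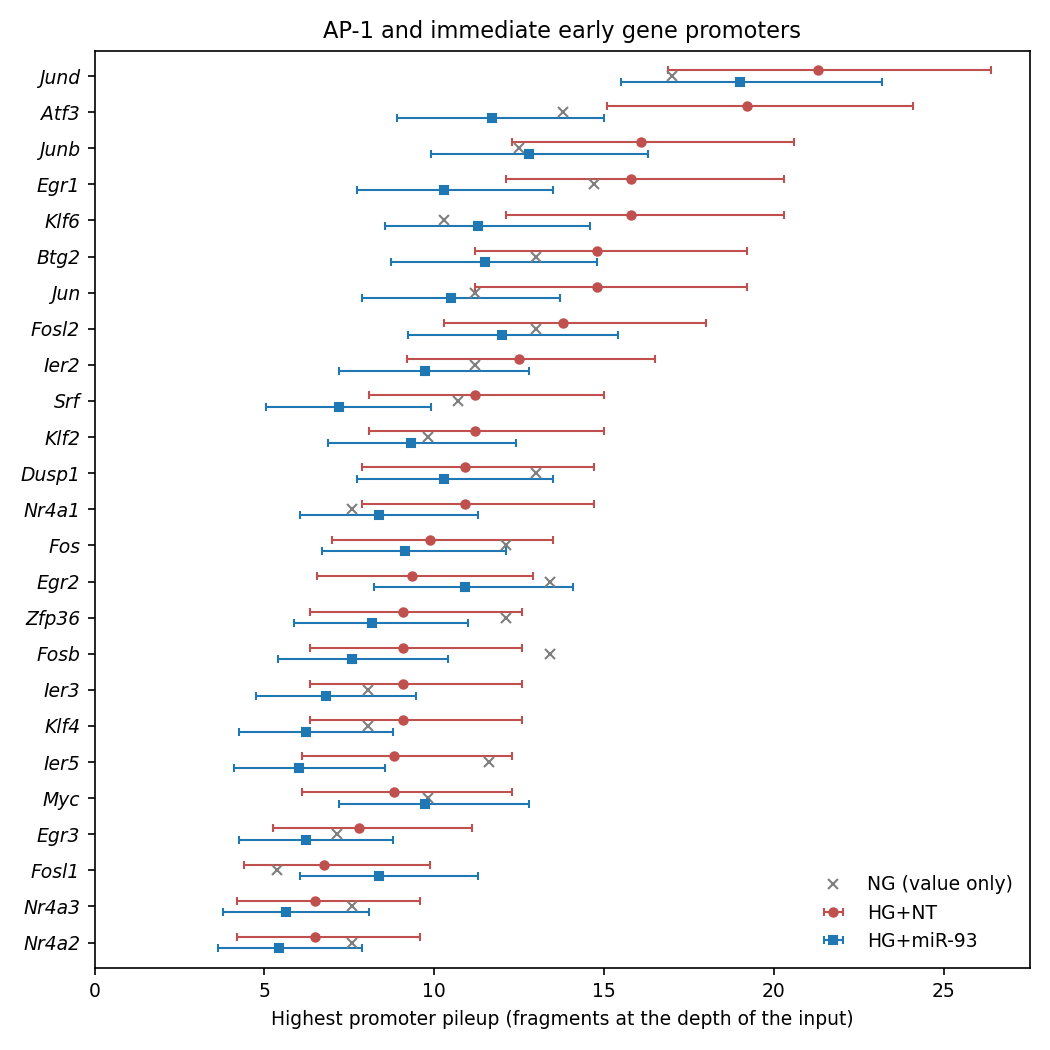
Highest promoter pileup, in fragments scaled to the input (horizontal axis), of the 25 AP-1 and immediate early genes in HG+NT (circles) and HG+miR-93 (squares) with 95% exact Poisson intervals and in NG (crosses, value only), ordered by HG+NT. The HG+miR-93 value is the lower at 22 of 25 genes, against 60.3% of all genes and 86.6% of the strongest NG decile. The intervals are apart only at Atf3.

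The genes that the study follows as markers of diabetic nephropathy had no common direction by fold. With Gapdh included as a reference, 2 of 10 were at least 20 points higher and 2 lower, against 20% and 20.1% of all genes. The pileup was lower at 9 of the 10, against 60.3% of all genes, with a median ratio of 0.916 beside 0.935 for their NG deciles. Below the median of their own decile lay 6 of the 10, against 49.6% of all genes. All intervals overlapped. Vegfa, the angiogenic factor that podocytes secrete, ranked at 11 and 80.1, but its pileups were 7.01 (4.62 to 10.2) and 7.0 (4.9 to 9.69), with a local mean of 6.0 at a summit 58 nt and of 2.7 at one 385 nt downstream of the TSS. Col4a1, a collagen of the basement membrane, ranked at 36.0 and 79.0 with pileups of 7.53 and 7.19, and its summits were also apart. Col4a3, a collagen of the mature glomerular basement membrane, ranked at 81.1 and 59.7 and was lower by pileup too, with 6.23 (3.99 to 9.27) and 4.47 (2.83 to 6.71) at matched summits. Tgfb1 had changes of -33.71 points by fold and 1.32 by pileup. The matrix gene Fn1 stayed near the top, at 98.4 and 99.3, as did Ccn2 (Ctgf) at 92.2 and 89.2. By pileup, Fn1 and Ccn2 had changes of -0.3 and 1.5 points. Rock1, a kinase of the actin cytoskeleton, ranked at 90.1 and 94.5 and was the only one with a higher pileup, 11.7 and 12.4. Dnm1l, which divides mitochondria, ranked at 26.1 and 39.4 by fold but had a change of -15.05 by pileup, with 5.97 and 4.86. Timp1, an inhibitor of matrix proteases, ranked at 59.8 and 66.9 by fold but had a change of -19.6 by pileup, with 4.67 and 3.69. Gapdh ranked at 52.2 and 42.5, with a change of 3.22 by pileup.

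The genes that make a podocyte did not share a direction. Of 19 slit diaphragm genes, 2 were at least 20 points higher and 6 lower (10.5% and 31.6%, against 20% and 20.1% of all genes). The medians were -4.28 points by fold and 0.28 by pileup. Cd2ap, the adaptor that ties nephrin to actin, was lower by both measures, with percentiles of 81.6 and 34.5 and pileups of 10.4 (7.42 to 14.1) and 6.41 (4.41 to 9.01). Nck2, another adaptor of nephrin, ranked at 81.1 and 7.26, with pileups of 6.23 and 4.08 at summits 63 nt upstream and 663 nt downstream of a TSS. Plce1, a phospholipase mutated in nephrotic syndrome, ranked at 64.4 and 89.9 with pileups of 5.45 and 6.61. Podxl (podocalyxin) ranked at 13.6 and 75.9 with pileups of 4.93 and 5.25, but its HG+NT summit lay 5815 nt from a TSS. Of 26 genes of actin and adhesion in podocytes, 5 were higher and 6 lower (19.2% and 23.1%), near the shares of all genes. Ezr (ezrin) and the laminin receptor subunit Itga3 were at the upper end and Arhgap24 and Lims1 at the lower. The highest-fold summits of Itga3 lay 436 nt downstream and 3579 nt upstream of a TSS. Those of Arhgap24 lay 1707 nt upstream and 302 nt downstream. At Lims1 the pileups were 20 (15.8 to 25.0) and 14 (10.9 to 17.6). The 12 podocyte markers, with a median of -10.25 points by fold and -1.25 by pileup, included 5 lower and 1 higher, and Nes (nestin) ranked at 89.1 and 18.9 with pileups of 5.97 and 5.25.

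Matrix genes had the largest share of members higher by fold among the lists of over 20 genes. Of 33 genes 12 were at least 20 points higher and 3 lower, and 24 were higher at all (72.7%, Wilson interval 55.8% to 84.9%), against 50.2% of all genes. By pileup 51.5% were higher, and the median ratio of 0.955 was close to the 0.952 of all genes. The higher members included pairs that share a promoter, Col4a1 with Col4a2 and Col4a5 with Col4a6. Col4a2 ranked at 8.36 and 51.7 and Col4a6 at 11.3 and 59. The Col4a2 summits lay 1120 nt downstream and 502 nt upstream of a TSS, and those of Col4a6 1518 and 1204 nt upstream. The lower were Col4a3 and its divergent partner Col4a4, which have 1 peak in common, and Col1a2, at 55.0 and 23.2.
TGF-beta and Smad genes were lower by fold, with 11 of 27 at least 20 points lower, 2 higher and a median of -9.13 points, but 63.0% were higher by pileup. Bmpr1a, a BMP receptor, ranked at 88.4 and 21.3, and Smad7, the inhibitory Smad, at 86.9 and 20.7 with pileups of 13.5 (10.1 to 17.7) and 9.33 (6.88 to 12.4). Smad5, which carries BMP signals, ranked at 33.2 and 78.4 with pileups of 6.23 (3.99 to 9.27) and 9.52 (7.04 to 12.6) at matched summits 18 and 4 nt upstream. The intervals of the repressor Ski were apart, 14.5 (11 to 18.9) and 7.58 (5.39 to 10.4), the only such gene of the list.
NF-kB and inflammatory genes had lower medians by both measures, -6.63 points by fold and -3.38 by pileup. Of 28 genes, 11 were at least 20 points lower by fold and 2 higher, and 28.6% were higher at all (15.3% to 47.1%). By pileup, 35.7% were higher at all (20.7% to 54.2%), an interval that includes the 50.0% of all genes. The median ratio was 0.837 beside 0.944 for the members' NG deciles. Below their own decile were 18 of 28 (64.3%), against 49.6% of all genes. Cxcl10, an interferon-induced chemokine, ranked at 86.8 and 10 and Ccl5, another chemokine, at 66.2 and 7.26. At both genes the ranks compare different sites. The Cxcl10 summits lay 89 nt upstream and 2721 nt downstream of a TSS in HG+NT and HG+miR-93, and those of Ccl5 10355 and 4291 nt upstream. Relb, an NF-kB subunit, had intervals that were apart, with 23.1 (18.6 to 28.4) and 13.2 (10.3 to 16.8), at percentiles of 99.4 and 96.4. The subunit Nfkb1 went the other way, with percentiles of 32.0 and 60.9 and pileups of 4.41 and 5.83, as did Traf6, an adaptor of Toll-like receptors, with 59.8 and 91.9. The ranks of Nfkb1 compare different sites too, with highest-fold summits 629 nt downstream and 2172 nt upstream of a TSS. Those of Traf6 lay 983 and 333 nt downstream.

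Chromatin genes were described in 3 lists. Of 42 subunits of SWI/SNF and other remodellers, 8 were at least 20 points higher and 9 lower by fold. The pileup was lower at 37 (88.1%), against 60.3% of all genes, and 16 of the 42 were in the strongest NG decile. The ratio was 0.854 where the members' NG deciles had 0.884. Below their own decile were 24 of the 42 (57.1%), against 49.6% of all genes. Gatad2a of the NuRD complex had intervals that were apart, 31.2 (25.8 to 37.3) and 20.4 (16.7 to 24.7). Smarcd1 and Smarce1, both subunits of SWI/SNF, ranked at 29.7 and 89.4 and at 40.6 and 85.4, while Arid1b of the same complex ranked at 41.1 and 4.7 and the remodeller Atrx at 65.6 and 27.2. Of 38 genes of histone acetylation and its readers, 8 were higher and 9 lower (21.1% and 23.7%), near the shares of all genes. The acetyltransferase Ep300 (p300) ranked at 97.3 and 56.5 and the deacetylase Hdac6 at 71.9 and 15.3, against 34.1 and 93.3 for the corepressor Ncor1 and 56.9 and 96.8 for the bromodomain protein Brd3. The acetyltransferase Kat6b had pileups of 26.5 (21.6 to 32.2) and 16.7 (13.4 to 20.6). Of 43 genes of histone and DNA methylation, 5 were higher and 13 lower, and 30.2% were higher at all (18.6% to 45.1%). By pileup, 39.5% were higher at all and the median change was -1.0 points. Past 20 points by pileup, 3 were higher and 0 lower, where 5.28% and 5.5% of all genes were. The H3K4 demethylase Kdm5b ranked at 65.1 and 6.04 and the H3K9 methyltransferase Ehmt2 (G9a) at 66.9 and 10.4, but the H3K27 demethylase Kdm6a ranked at 29.3 and 92.1 and the H3K36 methyltransferase Setd2 at 40 and 81.2.

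Replication-dependent histone genes had a smaller share of the fragments in HG+miR-93, also beside promoters of like strength in NG. Of 67 genes, which lie at 40 distinct peaks because many are clustered and divergent, 54 had a lower pileup in HG+miR-93, and the median ratio was 0.873 beside 0.973 for the members' NG deciles. Below their own decile lay 52 of the 67 genes (77.6%), or 31 of the 40 peaks, against 49.6% of all genes. The median change was -8.06 points by pileup, with 13 at least 20 points lower and 1 higher, and -2.81 by fold, with 17 lower and 13 higher. Beside Hist1h2ac and Hist1h2bc, Hist3h2a ranked at 69.8 and 7.34 with pileups of 8.31 (5.68 to 11.7) and 5.44 (3.62 to 7.86), and the linker histone Hist1h1d at 91.3 and 28.8. Hist1h1c, another linker histone, ranked at 7.37 and 57.9 by fold with pileups of 8.31 and 7.97. Hist1h4n was higher by both measures, with pileups of 3.12 (1.61 to 5.44) and 4.08 (2.53 to 6.24), at summits 1946 and 1812 nt downstream of a TSS.
Ribosomal protein genes of the cytosol had a ratio of 0.818 beside 0.927 for their NG deciles, with 55 of 83 below their own decile (66.3%) and 25 at least 20 points lower by fold against 10 higher. Rpl34 ranked at 94.3 and 28.8 and Rpl27 at 74.5 and 10, while Rpl22l1, a paralog of Rpl22, ranked at 12.3 and 65.3. The highest-fold summits of Rpl22l1 lay 1307 nt upstream and 128 nt downstream of a TSS. Mitochondrial ribosomal genes had a ratio of 0.873 beside 0.927 for their NG deciles, with 47 of 78 below their own decile (60.3%). By fold, 25 were at least 20 points lower and 8 higher. Mrpl18 had pileups of 13.2 (9.86 to 17.4) and 7.77 (5.55 to 10.6) at percentiles of 95.2 and 33.2, and Mrpl23 went the other way, with 4.67 (2.77 to 7.39) and 6.8 (4.74 to 9.46) at 59.8 and 94.6. Proteasome genes had a median of -9.96 points by fold, with 16 of 39 lower and 6 higher. Their ratio was 0.906 beside 0.927 for their NG deciles, with 22 below their own decile (56.4%), against 49.6% of all genes. Oxidative phosphorylation genes did not share the lower ranks by fold, with 14 of 84 lower, 17 higher and a median of -0.59. Their ratio was 0.945 beside 0.927 for their NG deciles, with 40 below their own decile (47.6%). Sdhd, a subunit of succinate dehydrogenase, ranked at 5.92 and 82.7, and Ndufa9 of complex I at 66.9 and 10.4 with pileups of 7.01 and 4.47.

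The remaining cellular lists had medians by fold close to that of all genes, while their pileup ratios were lower. The ratios were 0.905 for general transcription, 0.898 for E2F and cell cycle, 0.866 for autophagy and mTOR and 0.858 for insulin and glycolysis, against 0.952 for all genes and 0.927, 0.927, 0.884 and 0.884 for the members' NG deciles. A lower pileup was found at 54 of 72, 25 of 37, 25 of 33 and 29 of 35 genes, against 60.3% of all genes. Below the median of their own decile lay 36, 19, 19 and 17 of them, against 49.6% of all genes. General transcription factors had a median of -0.94 points, 14 of 72 higher and 16 lower, with RNA polymerase II subunits Polr2i and Polr2e at the lower end. At Polr2i the percentiles were 85.9 and 1.91 and the pileups 14.3 (10.8 to 18.6) and 9.13 (6.71 to 12.1), with local means of 5.4 and 12. E2F and cell cycle genes, of interest because miR-93 and its relatives are known to target E2F1, had a median of 0.16 points and 7 of 37 in each direction. Mcm4 ranked at 87.4 and 19.4 with pileups of 16.1 (12.3 to 20.6) and 11.7 (8.9 to 15), and Mcm2, of the same helicase, at 1.33 and 55.7 with pileups of 5.71 and 7.19. The highest-fold summits of Mcm2 lay 25 nt downstream and 845 nt upstream of a TSS. The intervals of E2f3 were apart by pileup, 14.5 (11 to 18.9) and 7.77 (5.55 to 10.6), although its percentiles by fold were 49.4 and 54.0. Autophagy and mTOR genes had a median of 2.76 points, with 8 of 33 higher and 6 lower. The kinase Ulk1, which starts autophagy, ranked at 93.7 and 15.3 with pileups of 12.7 (9.41 to 16.8) and 7.38 (5.23 to 10.1) at matched summits, whereas Ulk2 ranked at 8.6 and 68.4 and Tsc1, which restrains mTOR, at 18.5 and 80.3. Insulin signalling and glycolysis genes had a median of -0.33 points, 8 of 35 higher and 7 lower. Aldoa, the glycolytic aldolase, ranked at 88.9 and 22.1 with pileups of 11.4 (8.3 to 15.3) and 6.8 (4.74 to 9.46).

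Families that podocytes are not known to use, or use in part, served for comparison. The 1463 olfactory and vomeronasal receptor genes, whose promoters are weak, had a median change of -0.16 points and a ratio of 0.968 beside 0.998 for their NG deciles, with 13.9% at least 20 points higher and 12.3% lower. For 394 Zfp zinc finger genes the median was -0.67 points and the ratio 0.935, for 113 keratin genes 2.46 and 0.998, and for 57 protocadherin genes -7.61 and 0.979. Hox genes, which keep the positional identity of a cell, had the highest ratio of the lists of 10 or more genes, 1.04 over 39 genes. Of these, 10 were at least 20 points higher and 11 lower by fold, and the medians were 6.81 points by fold and 4.9 by pileup. Hoxc9 ranked at 11 and 97.7 and Hoxa9 at 85.6 and 23.7, with changes of 12.86 and -9.19 by pileup. The Hoxc9 summits lay 243 nt downstream of a TSS in HG+NT and 4012 nt upstream in HG+miR-93, so its ranks compare 2 sites. The 8 tubule markers had a ratio of 1.16, led by Umod (uromodulin) with pileups of 3.12 (1.61 to 5.44) and 4.86 (3.14 to 7.17), at summits 2409 and 2122 nt from its TSS.

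Genes with a full 8-base site for miR-93 in the 3′ UTR had median changes near those of all genes, at promoters that were stronger to begin with (median HG+NT pileup 5.97 against 4.93). Of 773, 163 were at least 20 points higher by fold (21.1%) and 177 lower (22.9%), 50.1% were higher at all (46.5% to 53.6%), and the medians were 0.01 points by fold and 0.07 by pileup. Their ratio was 0.945, beside 0.944 for their NG deciles. Rest, a repressor of neuronal genes, was the highest by fold among those with the same sign by pileup, at percentiles of 16 and 97.8 and pileups of 6.49 (4.2 to 9.58) and 8.36 (6.05 to 11.3). Spon1 ranked at 7.02 and 81.2, and at the other end Plekha3 ranked at 93.6 and 13.0 and Ulk1, given above, held such a site too. Only E2f3 and Brat1 of the 773 had intervals that were apart, both lower in HG+miR-93. A site in a UTR bears on the mRNA, and these values are on the promoter of the same gene.

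**Figure D5:**
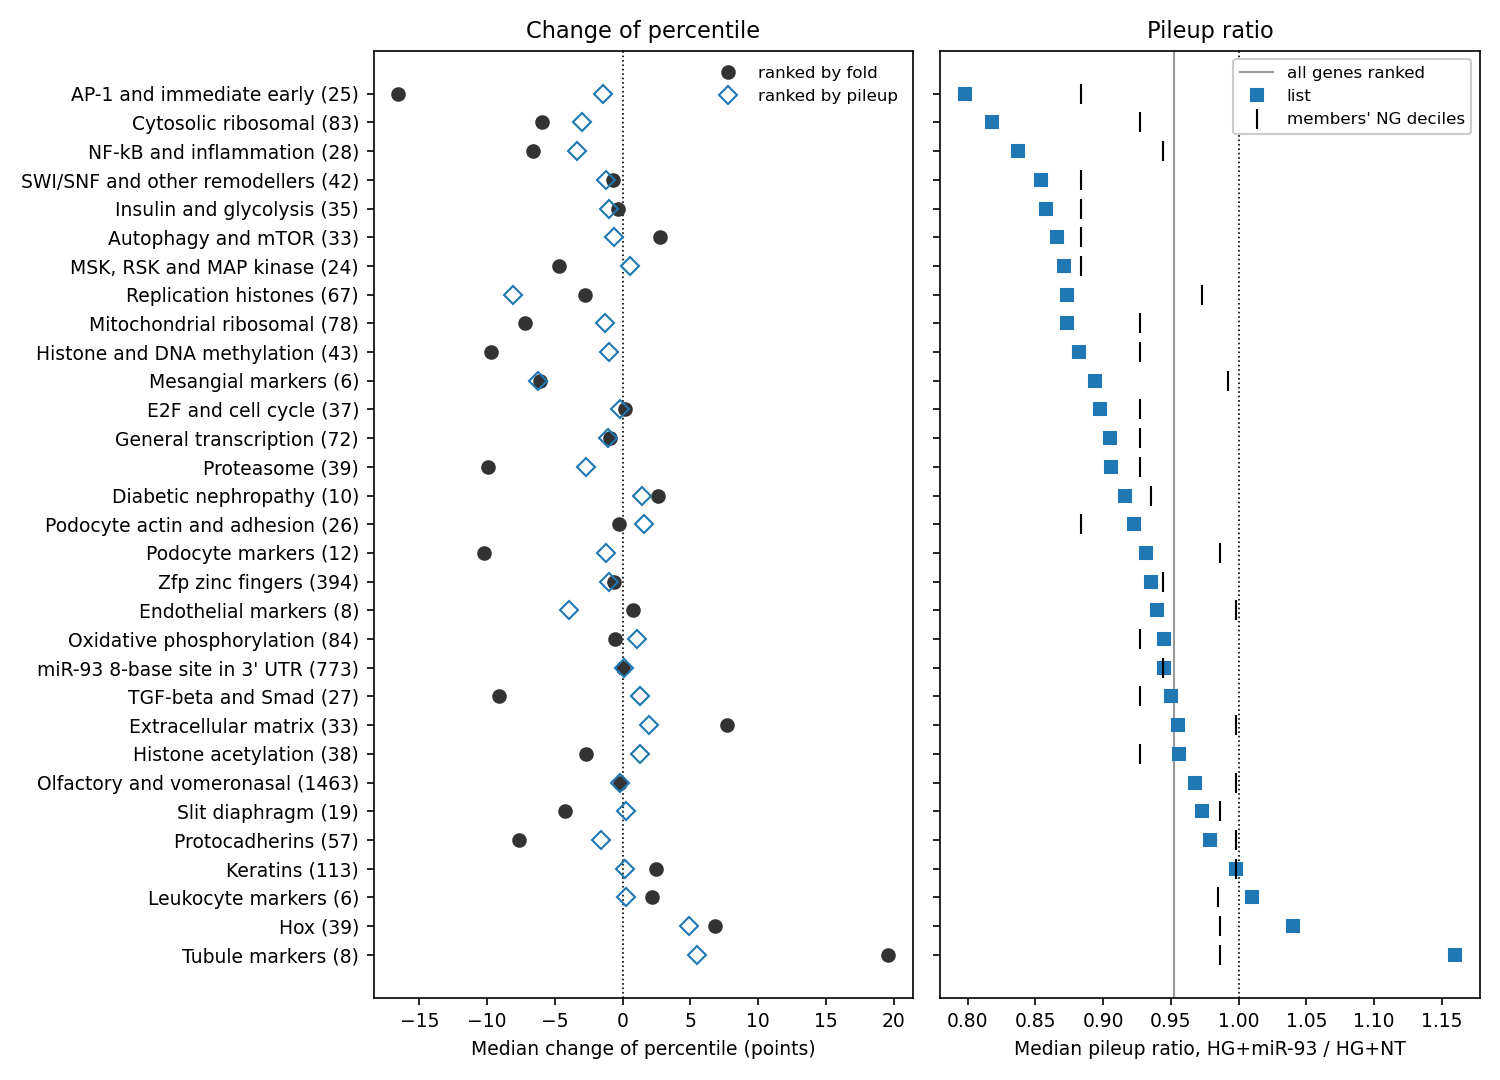
Median change of percentile by fold (filled circles) and by pileup (diamonds), in points (left), and median pileup ratio of HG+miR-93 to HG+NT (squares, right) for 31 gene lists, with the number of genes in brackets, the ratio of all genes (grey line) and the median over the members of the ratio of their NG decile (black bars). The squares of the immediate early, cytosolic ribosomal, NF-kB and replication histone lists lie furthest left of their bars among lists of over 20 genes.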

How the data were processed

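DNase-Seq of cultured mouse podocytes was read from 1 peak list per condition. Per the study's methods, nuclei were digested with 30 U DNaseI, fragments of 50 to 500 bp were purified and sequenced as single reads (36 cycles, HiSeq), base calls were made by CASAVA 1.8.2, and the authors trimmed the reads, placed them on mm10 by Bowtie, dropped duplicates and used MACS2, with digested genomic DNA as control, to call peaks. Versions and settings other than these, and how replicates were joined, were not given in the sources used here. The deposited values are the fold enrichment (a ratio) at each summit and the −log10 p and −log10 q of the peak. The q was not used.

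For each peak, the whole number of fragments and the local mean that give the deposited fold and −log10 p under MACS2's Poisson model were solved. In simulated lists of 40000 peaks the fragments were recovered for 100.0%. Genes are the protein-coding genes of GENCODE vM21 (GRCm38), and a peak belongs to a gene when it overlaps 500 nt on either side of any of its TSS. Named are the 12 genes with the largest and the 12 with the lowest changes, taken as the smaller of the changes by fold (at least 20 points) and by pileup with the same sign, with summits within 150 bp of each other, 1 solution and no predicted symbol. All members of the kinase, immediate early and nephropathy lists are named as well, and of other lists the 2 highest and 2 lowest of at least 20 points with the same sign by pileup, not all of them printed. Some genes of these lists are not reported here.

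The genes and lists were chosen with earlier results of these data known. The deciles by NG strength and the 4 alternatives tried on their strongest decile were chosen after seeing the data. No test between conditions was run. The 95% exact Poisson intervals of fragments cover counting error only, and fragments are reads, not molecules counted once. The 95% Wilson intervals of shares are taken over genes as if these were independent. Genes are not replicates and some share a peak, so the Wilson intervals hold neither counting error nor replicate error. Sequences are from RefSeq (GRCm38.p6) for miRNAs and from the GRCm38 genome for promoters. The work was done in Python 3.11.15 (scipy 1.17.1, pandas 2.3.3, numpy 2.4.6) and plotted by matplotlib 3.10.9.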

Additional observations from a re-analysis of the deposited data

How the results depend on the processing

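No paired analysis was possible because each condition is 1 list over its replicates, and for the same reason leaving out a replicate could not be run. Ranking by pileup gave 1152 promoters at least 20 points higher and 1200 lower, a threshold of 30 points 2700 and 2712, and matched summits, ranked among themselves, 880 and 889 of 5365. Spearman's rho was 0.904 by pileup, 0.71 by the sum of folds at a promoter, 0.695 with matched summits and 0.152 among genes above the median of the mean percentile. The share of members higher in HG+miR-93 became, by pileup, 51.5% for matrix, 63.0% for TGF-beta, 63.2% for histone acetylation and 22.4% for replication histones. By the sum of folds it became 48.8% for histone and DNA methylation and 52.2% for olfactory receptors, which had 59.3% by −log10 p. With matched summits it was 25.0% for the MSK list and for insulin and glycolysis, 35.3% for autophagy, 25.8% for cytosolic ribosomal, 53.1% for olfactory receptor, 66.7% for keratin, 40% for Hox and 45.5% for 8-base-site genes, and it was 24.2% for cytosolic ribosomal genes above the median percentile. In the strongest NG decile, a lower pileup was found at 82.6% of genes with the peak of the highest fold and at 88.6% with matched summits.

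Of the single genes with a change of at least 20 points by fold, the sign turned by pileup at Atf1 (-11.55 points), Aurkb (-1.61), Dusp1 (2.92), Fos (2.67), Hmgn1 (3.5), Mapk3 (-11.94), Mcm7 (3.35), Nr4a1 (-3.69), Rps6ka3 (4.9), Tgfb1 (1.32) and Zfp36 (1.2). By the sum of folds it did so at Clint1 (2.12), Deup1 (-0.08), Dusp1 (0.28), Hist1h2ac and Hist1h2bc (2.22), Hoxa9 (5.51), Hoxd8 (18.13), Mapk3 (-5.72), Pim1 (3.82), Plce1 (-1.04) and Smarcd1 (-7.92). With 1000 nt on either side of the TSS it did so at Cubn (-31.96), Hist1h2ac (12.6), Itga3 (-1.61), Map2k6 (10.71), Mrpl44 (30.91) and Tsc1 (-4.43). The causes were not tested. These are all 28 sign turns among 910 recomputed values for such genes. For named genes under 20 points by fold, the sign turned in 21 of 177 values, 12 of them by pileup, 5 by the sum of folds and 4 by −log10 p. Lists with under 5 members under a setting were not recomputed. Counting error limits single promoters, at medians of 19 and 25 fragments.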

Other observations

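The 18 promoters whose intervals were apart with the higher pileup in HG+miR-93 included the following, named after their values had been seen: Col11a2, Eif4enif1, Gnb3, Iqcn, Kcnn1, Kif22, Map3k12, Pheta2, Plppr3, Prrt2, Prrx2, Syce1l, Syna, Tgfbr3l, Ttll3, Zfp580 and Zfp978. None of the 18 had matched summits. At Map3k12, a kinase of the JNK pathway, the HG+NT and HG+miR-93 pileups were 8.05 (5.47 to 11.4) and 20 (16.3 to 24.3). At Gnb3, a G protein subunit, they were 4.67 (2.77 to 7.39) and 15.2 (12 to 18.9), and the peaks of highest fold that reached this promoter had summits 5533 nt upstream and 10821 nt downstream of a TSS. At Zfp978, with 2.6 (1.25 to 4.78) and 7.0 (4.9 to 9.69), those summits lay 21661 nt downstream and 10543 nt upstream.

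By chromosome, the median change by fold ran from -1.52 points (chromosome 18, 511 genes) to 1.02 (chromosome 15, 781 genes) among the autosomes and was 2.05 for the 947 genes of X. The 182 genes of Y, many of which are copies with near-identical sequence, had a median change of 0.55 points and a median pileup ratio of 1.12, against 0.935 to 0.979 on the other chromosomes.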
